A study of Mus musculus with 6 samples.

Results

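ETS factors are transcription factors that share a winged-helix DNA-binding domain, the ETS domain, which reads a GGAA core. In the mammary gland ELF5 directs luminal progenitors towards milk-secreting alveolar cells downstream of the prolactin receptor, while ELF3 and EHF are restricted to epithelia. ETS1, ETS2 and the PEA3 factors ETV4 and ETV5 respond to receptor tyrosine kinase and ERK signals, and ETV6 acts mainly as a repressor. The 10 genes examined here, Elf5, Elf3, Ehf, Elf1, Ets1, Ets2, Spdef, Etv4, Etv5 and Etv6, were taken by symbol from the annotation of the array, in which each was represented by 1 probe set, and were 10 of the 19505 genes measured.

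Luminal cells were FACS-sorted as Sox9-GFP-high and Sox9-GFP-low from the mammary glands of 3 female Sox9-GFP;C3(1)/Tag mice, about 3 months old and on an FVB/NJ background, and the RNA was hybridised to expression arrays (n = 3 arrays per sort). Both sorts carried both transgenes: Tg(Sox9-EGFP)EB209Gsat, an EGFP reporter of the transcription factor Sox9, and C3(1)/Tag, in which the C3(1) promoter drives SV40 large T antigen, a viral oncoprotein. The labels numbered the arrays 1 to 3 within each sort without naming an animal, and whether the glands were pooled was not stated, so p-values measure the spread between these arrays. Because sorted cells were measured in bulk, a lower value from fewer cells of a type cannot be told apart from less RNA per cell.

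Values are deposited log2 expression values, and a difference is the Sox9-GFP-high mean minus the Sox9-GFP-low mean on that scale. A gene passed where its adjusted p was under 0.05 in limma's moderated test, with Benjamini-Hochberg adjustment over all 22206 probe sets. Array medians lay between 5.15 and 5.21, and arrays correlated at 0.992 to 0.994 (Pearson's r across probe sets) within a sort, against 0.979 to 0.988 between sorts. Sox9 itself was at 14.42, 13.77 and 14.46 in Sox9-GFP-high arrays and at 13.36, 12.82 and 13.44 in Sox9-GFP-low arrays, higher by 1.01 (SE 0.25, adjusted p = 0.0360).

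Of the 10 ETS factors, 1 fell in Sox9-GFP-high cells, 0 rose and 9 did not pass. Elf5 was the one that fell, 8.57-fold lower in Sox9-GFP-high than in Sox9-GFP-low cells. Over all probe sets 7.20% passed, of which those that fell made 3.20% of all and those that rose 4.0%. The median difference of the 10 was 0.06, against 0.01 over all probe sets, with 6 positive and 4 negative differences. With the array number as a block, Ets1 also passed, which made 1 higher and 1 lower, against 6.32% and 4.99% of all probe sets.

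RefSeq places the transcription starts of Elf5 on mouse chromosome 2 (GRCm38.p6), on the + strand and 11970 bases apart. The windows of 300 bases around both, from 250 bases before to 50 bases after the start, are given here because Elf5 carried the one difference among the 10 that passed. Capitals mark GGAA on either strand, so that TTCC is a match on the opposite strand. The first window spans chr2:103411848-103412147 and the second chr2:103423818-103424117.
Elf5 start 1: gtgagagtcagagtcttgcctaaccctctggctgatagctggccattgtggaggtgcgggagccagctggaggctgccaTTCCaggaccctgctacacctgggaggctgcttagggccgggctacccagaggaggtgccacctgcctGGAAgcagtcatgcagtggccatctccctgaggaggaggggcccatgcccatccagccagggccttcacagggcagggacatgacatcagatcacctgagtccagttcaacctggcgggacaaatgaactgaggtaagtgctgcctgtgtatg
Elf5 start 2: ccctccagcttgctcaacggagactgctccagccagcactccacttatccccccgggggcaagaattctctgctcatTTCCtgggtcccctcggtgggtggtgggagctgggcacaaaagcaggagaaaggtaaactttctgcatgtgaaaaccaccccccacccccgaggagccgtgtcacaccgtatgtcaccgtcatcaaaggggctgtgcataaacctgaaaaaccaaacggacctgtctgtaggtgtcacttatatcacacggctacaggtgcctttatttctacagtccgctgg
The ETS core GGAA was found 2 times in the first window and 1 time in the second. Of 32851 RefSeq promoter windows of this length, 96.0% held at least 1 GGAA on either strand, with a median of 3 matches. The longer ETS letters CCGGAAGT, present in 3.89% of all windows, and the STAT letters TTCNNNGAA, present in 8.30%, were in neither Elf5 window. Of the SOX letters, ACAATG (12.6% of all windows) was found 1 time in the first window, on the opposite strand, and ACAAAG (18.7%) in neither. The matches describe letters only, and the genome build of the array was not named in the sources used here.

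Elf5 was at 5.65, 6.72 and 6.59 in Sox9-GFP-high cells, against 8.79, 10.47 and 9.0 in Sox9-GFP-low cells. The Sox9-GFP-high values lay above the array medians of 5.15 to 5.21, and without a background signal their height above background is not known. Every Sox9-GFP-high array lay below every Sox9-GFP-low array, a separation in this direction that 11.4% of all probe sets showed. The means were 6.32 ± 0.58 in the Sox9-GFP-high sort and 9.42 ± 0.91 in the Sox9-GFP-low sort (SD, n = 3 each), a difference of -3.10 (SE 0.43, 95% interval -4.05 to -2.15, limma adjusted p = 0.00268). An exact two-sided permutation test of the 3 against 3 arrays gave p = 0.1, the smallest it can give. In both sorts array 2 was highest and array 1 lowest, and arrays of the same number differed by -3.13, -3.75 and -2.41 for numbers 1, 2 and 3. The call was kept in each of 9 fits that left out 1 array or 1 array number, with differences from -3.44 to -2.58. In the Sox9-GFP-low group, array 2 carried the highest value, and without it the difference was -2.58.

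Elf3 and Ehf, which are restricted to epithelia, did not pass. Elf3, a regulator of epithelial differentiation, was at 10.69, 9.62 and 10.48 in Sox9-GFP-high cells, against 10.66, 9.53 and 10.15 in Sox9-GFP-low cells. The sorts overlapped, array 2 was lowest in both, and the difference was 0.15 (95% interval -0.59 to 0.89, limma adjusted p = 0.867). This interval lay above that of Elf5, although a difference between the genes was not tested.

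Ehf, also named ESE3, was at 12.84, 12.59 and 12.40 in Sox9-GFP-high cells, against 13.18, 13.24 and 12.83 in Sox9-GFP-low cells. Each array number was lower in Sox9-GFP-high than in Sox9-GFP-low cells, yet the ranges overlapped by a margin, since array 1 of the Sox9-GFP-high sort lay just above array 3 of the Sox9-GFP-low sort. The difference of -0.47 (SE 0.19, 95% interval -0.91 to -0.04) had a limma adjusted p of 0.196, and of 0.112 with the block. Elf1, a widely expressed member, was at 14.59, 14.26 and 14.44 in Sox9-GFP-high cells, against 14.74, 14.57 and 14.71 in Sox9-GFP-low cells. Here too each array number was lower in Sox9-GFP-high cells, by 0.25 on average (limma adjusted p = 0.486).

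**Figure D1:**
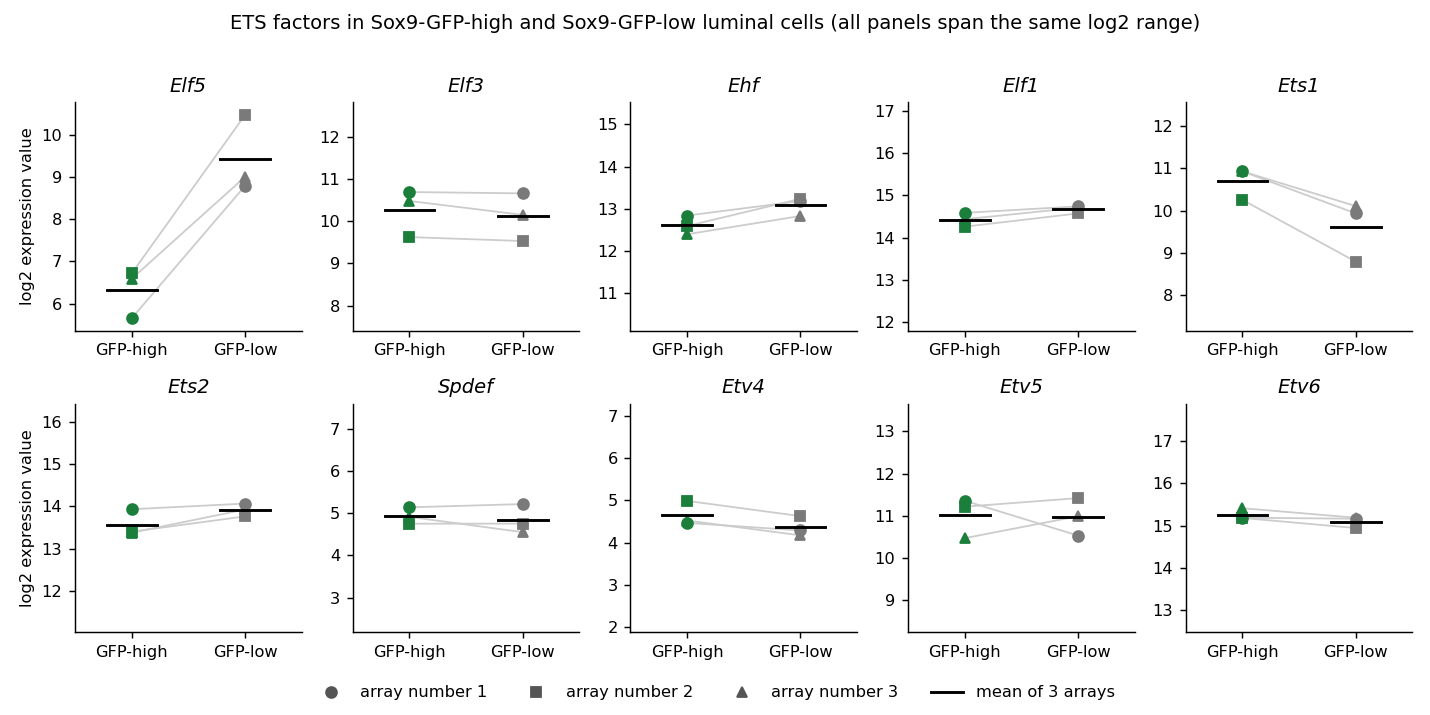
Log2 expression values (vertical axis) of the 10 ETS factors in 3 Sox9-GFP-high arrays (green, left) and 3 Sox9-GFP-low arrays (grey, right), with the mean of each sort as a bar and thin lines joining arrays of the same number. Each panel spans the same length of the log2 scale, and the sorts are separated only for Elf5, lower in Sox9-GFP-high cells, and Ets1, higher in them.

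Ets1 lay on the opposite side. Ets1, a target of ERK that also acts in lymphoid and endothelial cells, was at 10.93, 10.25 and 10.93 in Sox9-GFP-high cells, against 9.93, 8.79 and 10.11 in Sox9-GFP-low cells. Every Sox9-GFP-high array lay above every Sox9-GFP-low array, as it did for 14.1% of all probe sets. The means were 10.70 ± 0.39 in the Sox9-GFP-high sort and 9.61 ± 0.71 in the Sox9-GFP-low sort (SD, n = 3 each), and the difference was 1.09 (2.13-fold, SE 0.34, 95% interval 0.34 to 1.84). It did not pass in the unblocked limma fit (adjusted p = 0.0857) and passed with the array number as a block (adjusted p = 0.00633, 95% interval 0.67 to 1.51). Array 2 was the lowest of both sorts, so that the differences by number, 1.00, 1.46 and 0.82, spread less than the values within a sort. Without the block, Ets1 passed in 0 of the 9 fits with an array or number left out, with adjusted p from 0.0647 to 0.226.

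Ets2, the close paralog of Ets1, was at 13.93, 13.40 and 13.38 in Sox9-GFP-high cells, against 14.06, 13.76 and 13.93 in Sox9-GFP-low cells. The ranges overlapped through array 1 of the Sox9-GFP-high sort, and the difference was -0.35 (95% interval -0.80 to 0.10, limma adjusted p = 0.387). The intervals of Ets1 and Ets2 shared no value, and a difference between the genes was not tested.

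The PEA3 factors did not pass. Etv4 was at 4.47, 4.99 and 4.52 in Sox9-GFP-high cells, against 4.29, 4.63 and 4.17 in Sox9-GFP-low cells, below the array medians in both sorts. It was higher in Sox9-GFP-high cells at each number, by 0.30 on average (limma adjusted p = 0.492). Etv5, which like Etv4 is induced by FGF signalling, was at 11.36, 11.22 and 10.47 in Sox9-GFP-high cells, against 10.53, 11.42 and 10.99 in Sox9-GFP-low cells. Numbers differed in sign for Etv5, with 0.83, -0.20 and -0.52, and the mean difference was 0.03 (95% interval -0.60 to 0.67, limma adjusted p = 0.968).

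Spdef, a factor of secretory and hormone-sensing luminal cells, was also below the array medians, at 5.14, 4.75 and 4.91 in Sox9-GFP-high cells, against 5.22, 4.75 and 4.55 in Sox9-GFP-low cells. Its difference of 0.09 (95% interval -0.38 to 0.57) had a limma adjusted p of 0.872. The deposited values hold no background signal, so expression of Spdef and Etv4 cannot be told apart from background. Etv6, a repressor of the family, was at 15.19, 15.18 and 15.41 in Sox9-GFP-high cells, against 15.16, 14.94 and 15.19 in Sox9-GFP-low cells. Its difference was 0.16 (95% interval -0.22 to 0.54, limma adjusted p = 0.682).

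The luminal label was checked against markers. Of 9 luminal markers all lay above the array medians, and their mean log2 value was 15.24 to 15.47 in Sox9-GFP-high arrays and 15.42 to 15.61 in Sox9-GFP-low arrays, while Krt19, a luminal keratin, fell by 1.65 (limma adjusted p = 0.00130). All 9 measured immune markers were below the array medians, among them Ptprc and Cd3e, markers of leukocytes and T cells. Their mean log2 values were 3.94 to 4.16 in Sox9-GFP-high arrays and 3.89 to 4.11 in Sox9-GFP-low arrays. Of 9 basal markers 0 passed, with means of 6.68 to 7.45 in Sox9-GFP-high arrays and 6.54 to 6.97 in Sox9-GFP-low arrays. Differences were positive for 5 of these markers and negative for 4. Krt14, a basal keratin, lay far above the array medians, with means of 14.80 in the Sox9-GFP-high sort and 14.25 in the Sox9-GFP-low sort. It was higher by 0.55 at a limma adjusted p of 0.159, and of 0.0816 with the block. Acta2 differed by -0.64 (limma adjusted p = 0.283). Mylk, a myosin kinase of myoepithelial cells, was at 8.85, 6.96 and 5.38 in Sox9-GFP-high cells, against 5.33, 4.14 and 4.14 in Sox9-GFP-low cells. It was higher by 2.53 with a limma adjusted p of 0.0604, and of 0.00263 with the block.
Of 7 endothelial markers 0 passed, with means of 4.28 to 4.66 in Sox9-GFP-high arrays and 4.32 to 5.30 in Sox9-GFP-low arrays. Of these markers 4 were below the array medians in both sorts, but Pecam1, Cdh5 and Cldn5 were not. Whether immune or endothelial cells had a part in the Ets1 values was not tested. Of 7 fibroblast markers 1 passed, the proteoglycan gene Dcn, lower by 2.22 on the log2 scale in Sox9-GFP-high cells (limma adjusted p = 0.00122), with list means of 5.12 to 5.22 in Sox9-GFP-high arrays and 5.27 to 5.64 in Sox9-GFP-low arrays. Of 5 adipocyte markers 0 passed, with means of 4.91 to 5.28 in Sox9-GFP-high arrays and 5.40 to 5.43 in Sox9-GFP-low arrays. The fibroblast and adipocyte means of all 3 Sox9-GFP-high arrays lay below those of the Sox9-GFP-low arrays, the direction of Elf5, but single genes stood out in both lists. Of the fibroblast markers 4 of 7 had a positive difference (median 0.04), while Dcn had -2.22 and Dpt, which passed with the block (adjusted p = 0.0354), had -0.67. Of the adipocyte markers Fabp4 had -1.42 without passing, and the other 4 lay between -0.14 and 0.04. Of the fibroblast markers 4 of 7, and of the adipocyte markers 4 of 5, were below the array medians in both sorts. Dcn and Fabp4 lay far above them. Dcn had means of 9.44 in the Sox9-GFP-high sort and 11.66 in the Sox9-GFP-low sort, and Fabp4 of 11.06 and 12.48. The part of fibroblasts and adipocytes in the result was not tested.

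The rest of the ETS family held 16 further genes, of which 15 were measured, with Fev not analysed here. Of these 4 rose, 0 fell and 11 did not pass, against 4.0% of all probe sets that rose and 3.20% that fell. Such shares are given for scale, because this and the further lists were chosen with earlier results of these data known. The median difference of the 15 was 0.46, against 0.01 over all probe sets. It was 0.46, 0.40 and 0.45 as deposited, after quantile normalization and after centring the arrays on their medians. In 8 of the 15 every Sox9-GFP-high array lay above every Sox9-GFP-low array, as in 14.1% of all probe sets. These 8 include Spic, below the array medians in both sorts, with a difference of 0.21 (limma adjusted p = 0.608). Of the 15, 7 were below the array medians in both sorts, among them Erg and Fli1 of endothelial and blood cells, Etv1 and the haematopoietic Spi1, Spib and Spic. Among probe sets above the array medians in both sorts, 7.0% rose and 5.60% fell.

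Elf4, an activator close to Elf1 in sequence, was at 10.37, 9.51 and 9.93 in Sox9-GFP-high cells, against 8.62, 8.06 and 8.79 in Sox9-GFP-low cells. The sorts did not overlap, and Elf4 rose by 1.44 (SE 0.26, 2.72-fold, limma adjusted p = 0.00990). It passed without any single array, and lost the call without array number 1 (adjusted p = 0.0608) or number 3 (adjusted p = 0.0631) of both sorts. Etv3, a repressor, was at 10.88, 10.28 and 10.50 in Sox9-GFP-high cells, against 9.86, 9.23 and 9.54 in Sox9-GFP-low cells. It was higher by 1.01 (SE 0.22, limma adjusted p = 0.0242).

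Gabpa, the ETS subunit of GA-binding protein and an activator of nuclear genes for mitochondrial proteins, was at 9.19, 8.86 and 9.11 in Sox9-GFP-high cells, against 8.49, 8.25 and 8.04 in Sox9-GFP-low cells. It was 1.73-fold higher (difference 0.79, limma adjusted p = 0.0328), with no overlap of the sorts. Erf, a repressor that ERK exports from the nucleus, was at 12.71, 12.14 and 12.46 in Sox9-GFP-high cells, against 11.64, 11.67 and 11.72 in Sox9-GFP-low cells. Erf was 1.70-fold higher (difference 0.76, limma adjusted p = 0.0386). The calls of these 3 genes were less stable than those of Elf5 and Elf4. Etv3 and Gabpa each passed in 2 of the 9 fits with arrays left out, and Erf in 1.

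Elk1, a ternary complex factor that binds with SRF, was higher by 0.79 without passing (limma adjusted p = 0.0728) and passed with the block (adjusted p = 0.0342). Elf2, a relative of Elf1, was higher by 0.61 (adjusted p = 0.0929). Among genes with Elf in their symbol, which need not be close relatives, the differences were of both signs. They were -3.10 for Elf5 (interval -4.05 to -2.15) and 1.44 for Elf4 (0.86 to 2.03), while Elf1, Elf2 and Elf3 did not pass.

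**Figure D2:**
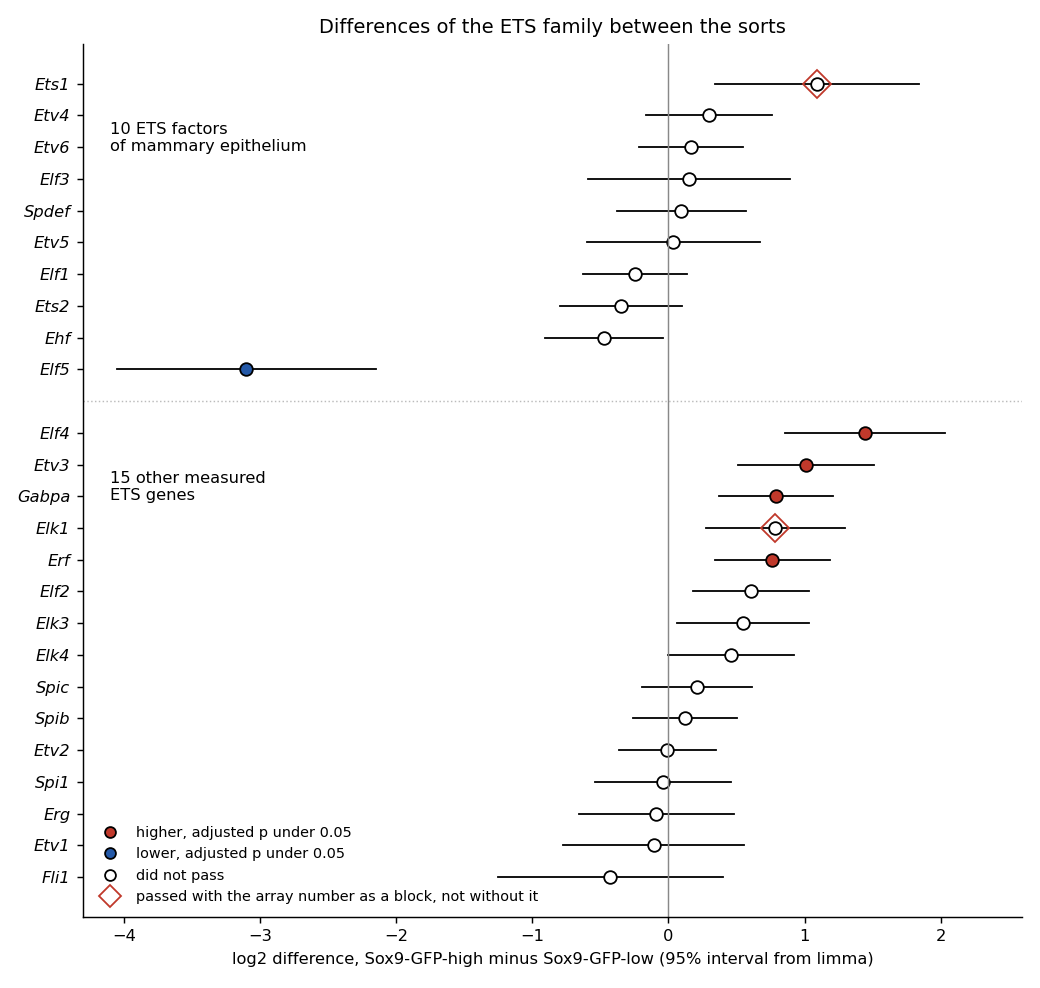
Log2 differences, Sox9-GFP-high minus Sox9-GFP-low (horizontal axis), with 95% limma intervals, for the 10 ETS factors (above) and the 15 other measured ETS genes (below). Elf5 at -3.10 is the only gene that fell, Elf4, Etv3, Gabpa and Erf rose, and diamonds mark Ets1 and Elk1, which did not pass without the block and passed with the array number as a block.

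Of 13 listed partners of ETS factors, cofactors and regulators of their activity, 12 were measured, with Ncor1 not analysed here, and of these 1 rose, 0 fell and 11 did not pass, against 7.20% of all probe sets that passed in either direction. Their median difference was 0.35. Atxn1l, which forms a repressor complex with CIC on the Etv4 and Etv5 genes, was at 9.23, 8.73 and 9.01 in Sox9-GFP-high cells, against 8.36, 8.02 and 8.38 in Sox9-GFP-low cells. It rose by 0.74 (limma adjusted p = 0.0495), close to the threshold, and kept the call in 1 of the 9 fits with arrays left out. Cic itself was higher by 0.40 without passing.
Gabpb1, the ankyrin-repeat subunit that pairs with GABPA, was at 9.22, 9.16 and 9.45 in Sox9-GFP-high cells, against 9.67, 10.14 and 10.03 in Sox9-GFP-low cells. Its sorts did not overlap and ran opposite to Gabpa, with a difference of -0.67 that did not pass without the block (limma adjusted p = 0.0637) and passed with it (0.0435) or after quantile normalization (0.0442). Srf, the partner of the ternary complex factors, was higher by 0.60 and passed only with the block (adjusted p = 0.0492). Runx1, a partner of ETS1 on composite sites, differed by -0.53 and did not pass.

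Genes of FGF and ERK signalling, upstream of Etv4, Etv5, Ets1 and Ets2 or part of the feedback on that pathway, mostly did not pass. Of 18 listed 17 were measured, with Ccnd1 not analysed here, and 2 rose, 2 fell and 13 did not pass, against 4.0% of all probe sets that rose and 3.20% that fell. Their median difference was 0.15. The receptors Fgfr1 and Fgfr2 fell. Fgfr1 was at 8.46, 7.34 and 8.64 in Sox9-GFP-high cells, against 10.37, 9.97 and 10.83 in Sox9-GFP-low cells, 4.74-fold lower (difference -2.24, limma adjusted p = 0.00414). Fgfr2 was 2.36-fold lower (difference -1.24, adjusted p = 0.0366), and kept the call in 2 of the 9 fits with arrays left out.

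The feedback inhibitors Spry1 and Dusp6 rose. Spry1, an inhibitor of receptor tyrosine kinase signalling, was at 9.36, 8.93 and 8.96 in Sox9-GFP-high cells, against 7.82, 7.08 and 6.72 in Sox9-GFP-low cells, higher by 1.88 (limma adjusted p = 0.00340). Dusp6, the ERK phosphatase, was at 17.37, 16.93 and 17.18 in Sox9-GFP-high cells, against 16.29, 16.09 and 16.34 in Sox9-GFP-low cells, higher by 0.92 (adjusted p = 0.0149). Spry1 and Fgfr1 passed in all 9 fits with arrays left out and Dusp6 in 3. Dusp4, another phosphatase of the pathway, was lower by 0.93 on the log2 scale and passed only with the block (adjusted p = 0.207 without it and 0.0283 with it). Fosl1, an AP-1 subunit, was higher by 0.56 and did not pass.

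The list around ELF5 and prolactin held 3 genes that fell, 0 that rose and 4 that did not pass, of 7 measured, with Prlr not analysed here and a median difference of -0.33. Of all probe sets 3.20% fell, a share given for scale, since the list was chosen with earlier results of these data known. Csn2, which encodes beta-casein, was at 12.70, 11.15 and 9.46 in Sox9-GFP-high cells, against 16.20, 15.77 and 15.37 in Sox9-GFP-low cells. It was 25.5-fold lower (difference -4.68, SE 0.63, limma adjusted p = 0.00249), with Sox9-GFP-high arrays spread much wider than Sox9-GFP-low arrays. Without array 3 of the Sox9-GFP-high sort Csn2 was 14.4-fold lower and without array 1 of that sort 44.5-fold lower, and it passed both times.
Wap, the whey acidic protein gene, was at 5.79, 5.37 and 5.52 in Sox9-GFP-high cells, against 10.46, 9.18 and 7.45 in Sox9-GFP-low cells. Here the Sox9-GFP-low arrays were the spread ones. Wap was 11.1-fold lower (difference -3.47, SE 0.58, limma adjusted p = 0.00677), 6.73-fold lower without array 1 and 19.1-fold lower without array 3 of the Sox9-GFP-low sort, and lost the call without array number 2 of both sorts (adjusted p = 0.0768).
Stat5a, the prolactin-activated factor that shares milk protein gene targets with ELF5, was at 8.39, 7.94 and 7.96 in Sox9-GFP-high cells, against 9.59, 8.92 and 8.83 in Sox9-GFP-low cells. It fell by 1.02 on the log2 scale (limma adjusted p = 0.0300), and kept the call in 2 of the 9 fits with arrays left out. Its paralog Stat5b differed by -0.33, the kinase gene Jak2 by -0.15, and the STAT5 feedback genes Cish and Socs2 by -0.16 and 0.46, none of which passed.

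Of 14 listed other epithelial regulators 13 were measured, and of these 1 rose, 2 fell and 10 did not pass, with a median difference of 0.11. Over all probe sets the shares were 4.0% that rose and 3.20% that fell. Tfap2c, an AP-2 factor of luminal cells, was at 8.70, 8.64 and 9.02 in Sox9-GFP-high cells, against 10.34, 10.04 and 10.28 in Sox9-GFP-low cells, and fell by 1.43 on the log2 scale (limma adjusted p = 0.00187). Its relative Tfap2a fell by 1.09 (adjusted p = 0.0298), and passed in 2 of the 9 fits with arrays left out, Tfap2c in all 9. Klf4, a factor of epithelial barrier differentiation, was at 14.23, 14.16 and 14.00 in Sox9-GFP-high cells, against 13.42, 13.02 and 13.19 in Sox9-GFP-low cells, and rose by 0.92 (adjusted p = 0.0132). It kept the call without any single array and lost it without each array number. Ovol1, a repressor of mesenchymal genes, was higher by 0.71 and passed only with the block (adjusted p = 0.0369).

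In the hormone-sensing luminal list, in which Spdef is placed by its known role, 6 of 9 listed genes were measured. Of these 0 rose, 1 fell and 5 did not pass, with a median difference of -0.38, where 3.20% of all probe sets fell. Xbp1, a factor of the secretory and unfolded protein response, fell by 1.27 on the log2 scale (limma adjusted p = 0.00431). The defining receptor Esr1 and Agr2 were the 2 genes of the list below the array medians in both sorts. Esr1 was at 3.24 to 3.45 in Sox9-GFP-high cells, against 3.31 to 3.80 in Sox9-GFP-low cells. Pgr, Foxa1, Xbp1 and Cited1 lay above the array medians in both sorts. Cited1, a transcriptional co-regulator, was lower by 1.24 and did not pass in the fit of all 6 arrays without the block (adjusted p = 0.0893). It passed with the block (adjusted p = 0.0032), and also without array 2 of the Sox9-GFP-high sort (0.0178) or array number 2 of both sorts (0.0258). Foxa1, the pioneer factor of oestrogen receptor sites, differed by -0.61 and did not pass.
Of 6 measured mesenchymal regulators, with Zeb2 not analysed here, 0 passed, by limma with or without the block, and all 6 were below the array medians in both sorts. Their differences ran from -0.11 to 0.26, and Vim, the mesenchymal intermediate filament gene, had the highest.

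**Figure D3:**
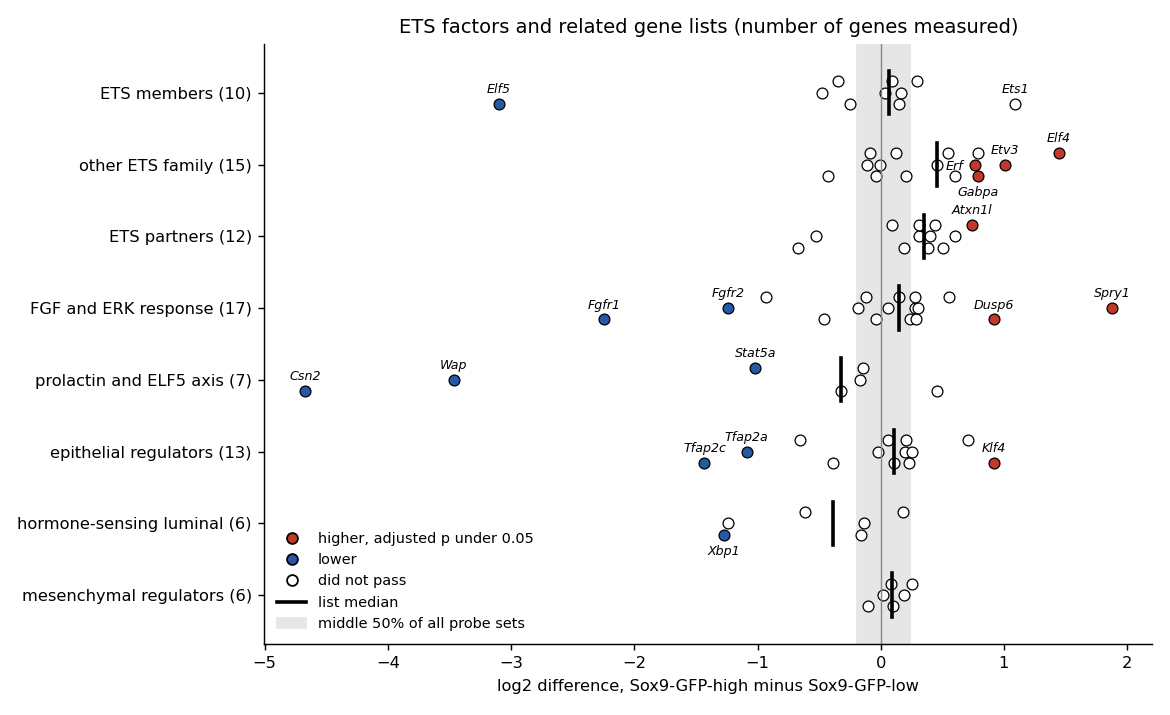
Log2 differences, Sox9-GFP-high minus Sox9-GFP-low (horizontal axis), of each measured gene in the ETS lists and in lists of related genes (rows, with the number measured), with list medians as bars and the middle of all probe sets shaded (-0.19 to 0.23). Coloured points passed in limma, and the casein and whey protein genes Csn2 at -4.68 and Wap at -3.47 lie on the same side as Elf5 at -3.10.

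Among 391 genes whose range over the 6 arrays was at least 0.5 times that of Elf5, 5 followed its pattern most closely by Pearson's r. They were Muc20, a membrane mucin (r = 0.980), Fkbp11, a prolyl isomerase of the endoplasmic reticulum (0.980), Pdxk, pyridoxal kinase (0.979), Mocs2, of molybdenum cofactor synthesis (0.978) and Hddc2 (0.977). The 6 values are shared arrays of both sorts, so that r also carries the difference between sorts. Mocs2 was at 10.74, 12.05 and 11.24 in Sox9-GFP-high cells, against 14.20, 14.90 and 14.04 in Sox9-GFP-low cells, a difference of -3.04. In Mocs2 as in Elf5 array 2 was highest in both sorts. The other 4 differed by -2.68 for Fkbp11, -2.02 for Pdxk and -1.91 for both Muc20 and Hddc2.

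The calls of the family differed in how they held up. Elf5 passed in every limma fit that was run, and missed the threshold only in the methods' t-test after adjustment. That test is the unpaired one which the study names for its statistics in general, and it was not described for these arrays. Ets1 passed in 1 alternative, the block. Elf4, Etv3, Gabpa and Erf passed in all alternatives that kept the 6 arrays, apart from the methods' t-test after adjustment, and differed in how far they depended on single arrays.

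**Figure D4:**
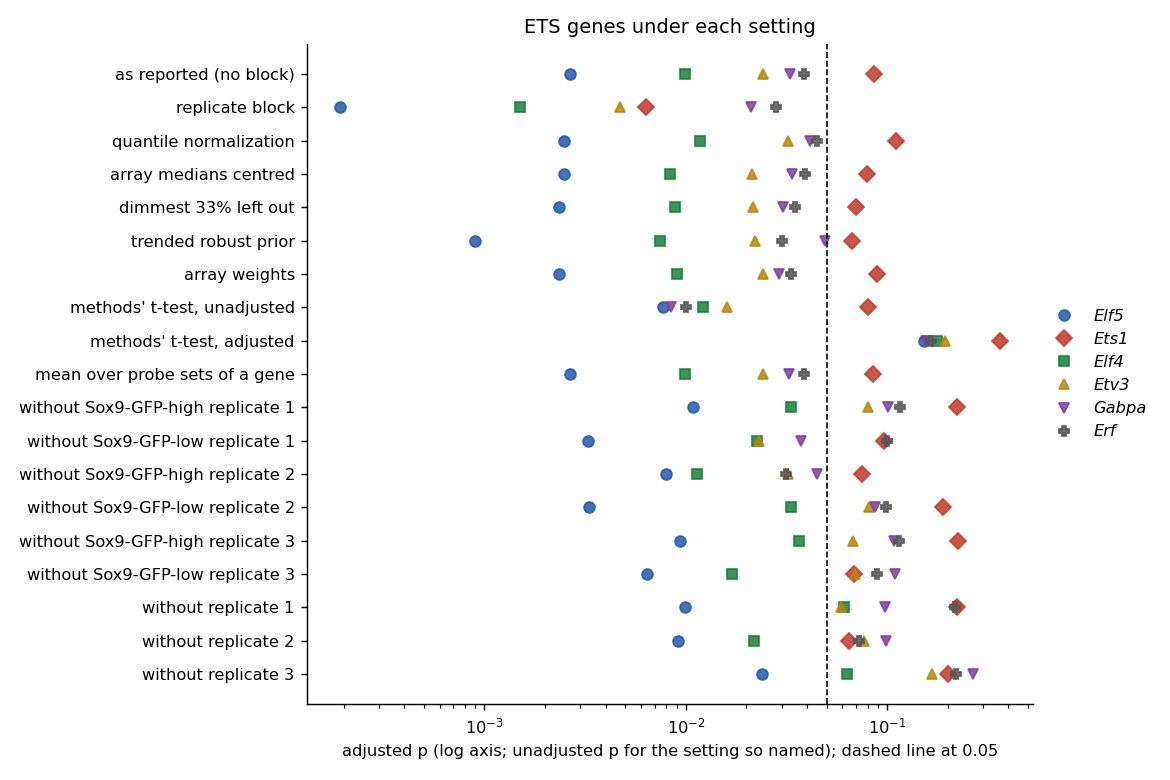
Adjusted p on a log axis (horizontal; unadjusted for the setting named so) of 6 ETS genes under each way of processing the arrays (rows), with the threshold of 0.05 dashed. Elf5 lies left of the threshold in every row but the methods' t-test after adjustment, while Ets1 lies left of it only under the replicate block (0.00633).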

How the data were processed

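The authors deposited log2 expression values, 1 column for each of 6 arrays (3 Sox9-GFP-high, 3 Sox9-GFP-low). The normalization of these arrays was not given in the sources used here, nor was the software. The study lists a platform (Affymetrix Clariom S Pico, mouse) and software (Transcriptome Analysis Console) among its resources, and its methods describe their use for a second array experiment. Of 22206 probe sets, 19572 had 1 gene symbol, 0 had several and 2634 were unnamed here. A gene was represented by the probe set with the highest mean.

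All probe sets were fitted in R 4.3.3 with limma 3.58.1 (lmFit, eBayes, two-sided, no block). The block was left out because the methods name an unpaired t-test for the study's statistics in general, without naming these arrays. The scripts were tested on simulated data. Arrays of the same number deviated together from their sort means (r = 0.236, 0.232 and 0.218 for numbers 1 to 3), which was taken as pairing. Between different numbers r was at most -0.06, but deviations cancel out within a sort, so this follows from the positive values and adds nothing to them. A fit with the number as a block is given where it changed a call. Alternatives were quantile normalization, median centring, a filter on the dimmest 33% of probe sets, a trended robust prior, array weights, the methods' t-test, the mean over probe sets, and leaving out arrays or array numbers. No array signal over background was available in these values, which limits the reading of dim values and of folds. The precision rests on the spread between arrays and on their number.

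The members and lists were chosen with earlier results of these data known. All 10 members were named with values, and of each other list the called genes and up to 4 more with the largest differences. A few further genes (Cic, Esr1, dim ETS genes, Sox9 and markers) were named for their role. Promoter windows come from RefSeq (GRCm38.p6), which held 7 of the 10 members and 14 of the 16 other ETS genes. Figures were drawn with matplotlib 3.10.9.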

Additional observations from a re-analysis of the deposited data

How the results depend on the processing

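With the replicate block 1404 probe sets rose and 1108 fell, which kept 1598 of the 1599 calls made without it. It raised the ETS members called higher to 1 (Ets1, difference 1.09, adjusted p = 0.00633), the ETS partners to 2 higher and 1 lower, the epithelial regulators to 2 higher and the hormone-sensing genes to 2 lower. It also added Elk1, Dusp4 and the markers Mylk and Dpt, and ended the call of no gene named in the lists. After quantile normalization the partners had 0 higher and 1 lower, and Etv5 differed by -0.0223, against -0.0206 with array weights. With a trended robust prior the partners had 0 higher. The methods' t-test called 2118 probe sets higher and 1647 lower without adjustment, with 2 partners higher and 1 lower. After Benjamini-Hochberg adjustment it called 1 higher and 2 lower, 0 genes of every list, and left Elf5 at -3.10 with an adjusted p of 0.152.

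Leaving out 1 array or 1 array number gave 231 to 672 probe sets higher and 316 to 563 lower, the lowest totals without array number 3. The ranges were 0 to 4 for other ETS genes higher, 0 to 1 for partners higher, 1 to 2 for FGF and ERK genes in either direction, 1 to 3 for prolactin genes lower, 0 to 1 and 1 to 3 for epithelial regulators higher and lower, and 1 to 2 for hormone-sensing genes lower. Differences that changed sign did not pass and ran from -0.14 to 0.47 for Elf3, -0.051 to 0.28 for Spdef and -0.36 to 0.31 for Etv5. Etv3 (adjusted p from 0.0232 to 0.167) and Gabpa (0.0375 to 0.266) passed only without array 2 of the Sox9-GFP-high sort or array 1 of the Sox9-GFP-low sort, and Erf (0.0314 to 0.220) and Atxn1l (0.0473 to 0.218) only without array 2 of the Sox9-GFP-high sort. Stat5a (0.0371 to 0.133) passed only without array 1 of the Sox9-GFP-high sort or array 3 of the Sox9-GFP-low sort, Tfap2a (0.0209 to 0.257) only without array 1 of the Sox9-GFP-high sort or array 2 of the Sox9-GFP-low sort, and Fgfr2 (0.00901 to 0.193) only without array 3 of the Sox9-GFP-low sort or number 3. Dusp6 (0.0220 to 0.119) lost its call without array 1 or 3 of the Sox9-GFP-high sort, array 2 of the Sox9-GFP-low sort, or when any array number was left out, and Klf4 (0.0186 to 0.102) when any array number was left out. The cause was not tested. Limits are 3 arrays per sort, no background signal for dim genes such as Spdef and Etv4, and numbering that names no animal. The missing background signal also limits the folds of Elf5, Wap and Fgfr2, whose Sox9-GFP-high values were low.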
